A study of Mus musculus with 9 samples.

Results

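The genes studied here make, copy or remove methyl groups on cytosine, assist in this, or have been proposed to: Tet1, Tet2, Tet3, Dnmt1, Dnmt3a, Dnmt3b, Dnmt3l, Uhrf1, Tdg and Apobec1. They were found in the deposited table by chromosome, start and end against the GRCm38 gene coordinates, and where a gene had several loci the one with the highest mean over the 9 libraries was taken. All 10 genes had a locus, out of 11877 protein-coding genes with a locus in the table. The names printed in the table were not used. The rule gives the genes by name, but they were chosen with earlier results of these data known, so the counts of genes called are not independent evidence beside the background shares. Values also entered the choice among several loci of the same span, which 5 genes had (Tet1, Tet2, Dnmt3a, Uhrf1 and Tdg).

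DNA methylation in mammals is copied to the new strand after replication by Dnmt1, which the protein Uhrf1 brings to hemimethylated CG sites. New methylation is laid down by Dnmt3a and Dnmt3b, and Dnmt3l, which has no activity of its own, assists them. The 3 Tet dioxygenases oxidise 5-methylcytosine, after which the base can be lost by dilution during division or be cut out by the glycosylase Tdg. Apobec1 is a cytidine deaminase known for editing RNA and once proposed to act on methylated cytosine.

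RNA was sequenced from 3 groups of 3 libraries, and all of the cells came from 1 mouse strain. Its alleles are a reverse tetracycline transactivator at Rosa26 and a doxycycline-inducible cassette of Pou5f1, Sox2, Klf4 and Myc at Col1a1, written Gt(ROSA)26Sortm1(rtTA*M2)Jae and Col1a1tm3(tetO-Pou5f1,-Sox2,-Klf4,-Myc)Jae/J. SSC are primary Gfra1+ spermatogonial stem cells of pup testes, selected with magnetic beads for the GDNF receptor Gfra1 and not passaged. SSCiPSC are induced pluripotent stem cells made from SSC, and fiPSC those made from fetal fibroblasts, both at passage 10 to 11 per the labels, whereas the methods give later passages. Per the study's methods the iPSC lines came from colonies, and SSEA1+ cells were selected from them for RNA. The labels place the cultures in medium with LIF and doxycycline, whereas the methods describe withdrawal of doxycycline. No library of the starting fibroblasts was used here, so fiPSC cannot be set against its own source. Nothing in the labels says that the libraries of a group came from separate animals, so the p-values measure the spread between these libraries.

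The depth, estimated from the lowest values and rounded, was about 1770000, 4640000 and 1390000 fragments in SSC replicates 1, 2 and 3, between 13660000 and 15840000 in SSCiPSC and between 13180000 and 17510000 in fiPSC. Levels are FPKM (fragments divided by transcript length and by library depth), a scale on which genes of different length can be compared. In SSC a value of 0 leaves a higher level possible than it does in iPSC.

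The label of the SSC libraries was checked against markers. The spermatogonial genes Gfra1 (37.7, 34.1 and 23.9 FPKM), Ret (51.0, 52.8 and 40.3 FPKM) and Zbtb16 (72.0, 77.4 and 51.9 FPKM) were present in all 3 SSC libraries and stood at or below 0.592 FPKM in every iPSC library. Of the 13 germ line genes with a locus, 8 were called lower and 4 higher in SSCiPSC. The 4 were Etv5 (38.8, 30.7 and 28.9 FPKM in SSC and 103, 143 and 123 FPKM in SSCiPSC), Kit, Lin28a and Sall4, the last 2 not called after quantile normalization. The 13 germ line genes summed to 687, 823 and 560 FPKM in SSC replicates 1, 2 and 3, led by Dazl, and to between 347 and 638 FPKM in iPSC. The same SSC libraries held transcripts of other testis cells, in part with larger sums. The lists differ in their genes, so their sums do not give shares of cells. The 10 Sertoli genes with a locus summed to 1493, 1570 and 1221 FPKM in SSC replicates 1, 2 and 3, with Clu the most abundant (713, 645 and 538 FPKM), and Fshr was at 0 in replicate 1. The 4 Leydig genes summed to 164, 130 and 244 FPKM, led by Cyp11a1. The 6 mast cell genes summed to 115, 441 and 1226 FPKM, led by Tpsab1 (50.3, 163 and 487 FPKM), and the 6 macrophage genes to 47.7, 15.1 and 146 FPKM, led by C1qa. The 11 fibroblast or feeder genes summed to 135, 123 and 350 FPKM, led by Col3a1 (32.6, 27.4 and 95.9 FPKM), the 5 peritubular myoid genes to 115, 97.5 and 84.9 FPKM, led by Acta2, and the 6 endothelial genes to 114, 57.7 and 97.5 FPKM, led by Pecam1. SSC replicate 3 was the highest for the mast cell, macrophage, fibroblast and Leydig lists. In bulk RNA, fewer cells of a type and less RNA per cell cannot be told apart, and the part of these other cells in the SSC values below was not tested. In iPSC the Leydig genes summed to at most 0.358 FPKM and the mast cell genes to at most 0.284 FPKM in any library, with Tpsab1 at 0 in all 6. The Sertoli genes summed to between 176 and 310 FPKM in iPSC, of which Rhox5 made up 162 to 296 FPKM. The macrophage genes summed to between 8.81 and 14.4 FPKM, led by Cd68, which was at 7.53, 3.51 and 15.8 FPKM in SSC and between 7.65 and 13.7 FPKM in iPSC. The endothelial genes summed to between 105 and 145 FPKM in iPSC, of which Pecam1 made up 79.6 to 125 FPKM. Pecam1 and Egfl7 were called higher in SSCiPSC than SSC, whereas Cdh5, Kdr and Tie1 were called lower and stood at or below 0.103 FPKM in every iPSC library. Pecam1 was not called after quantile normalization (log2 difference 0.61, limma, adjusted p = 0.194).

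SSCiPSC replicate 2 stood apart from the other libraries in Y-linked genes. Ddx3y was at 49.8, 0.223 and 37.3 FPKM in SSCiPSC replicates 1, 2 and 3, Eif2s3y at 54.1, 0.0741 and 48.0 FPKM, and Kdm5d at 5.46, 0 and 5.77 FPKM. In the 6 SSC and fiPSC libraries Ddx3y lay between 26.5 and 54.6 FPKM. Xist was at 3.56, 1.99 and 3.41 FPKM in SSCiPSC, so this library was not higher in it. Without SSCiPSC replicate 2, limma called 7 of the 10 genes between SSCiPSC and SSC, with only Apobec1 lost (adjusted p = 0.0834), and none between fiPSC and SSCiPSC.

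The start regions of 4 genes are shown because the results turn on their share or spread: Tet1 and Tet3, which exchanged places, and Dnmt3b and Dnmt3l, which of the 10 genes spread most between fiPSC libraries. They are the bases just before a RefSeq start in GRCm38.p6, 5′ to 3′ on the strand of the gene, with CG dinucleotides, the site that these enzymes act on, in capitals. For Dnmt3l the start nearest to the locus was taken, and for Tet1 only the 88 bases that lie outside every annotated exon of the gene.
Tet1, minus strand, chr10:62887325-62887412: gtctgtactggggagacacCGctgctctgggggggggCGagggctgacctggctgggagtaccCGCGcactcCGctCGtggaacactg
Tet3, minus strand, chr6:83441679-83441928: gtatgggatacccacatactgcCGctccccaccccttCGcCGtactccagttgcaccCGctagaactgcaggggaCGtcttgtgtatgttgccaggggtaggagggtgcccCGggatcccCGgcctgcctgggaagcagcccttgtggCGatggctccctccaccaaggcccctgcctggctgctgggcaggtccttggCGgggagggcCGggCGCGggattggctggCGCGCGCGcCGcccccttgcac
Dnmt3b, plus strand, chr2:153649199-153649448: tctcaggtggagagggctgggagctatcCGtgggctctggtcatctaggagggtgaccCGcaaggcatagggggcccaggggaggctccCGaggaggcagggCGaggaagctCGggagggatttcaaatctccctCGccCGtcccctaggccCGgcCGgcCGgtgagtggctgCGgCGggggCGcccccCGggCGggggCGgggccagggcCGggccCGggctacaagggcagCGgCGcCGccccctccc
Dnmt3l, plus strand, chr10:78049592-78049841: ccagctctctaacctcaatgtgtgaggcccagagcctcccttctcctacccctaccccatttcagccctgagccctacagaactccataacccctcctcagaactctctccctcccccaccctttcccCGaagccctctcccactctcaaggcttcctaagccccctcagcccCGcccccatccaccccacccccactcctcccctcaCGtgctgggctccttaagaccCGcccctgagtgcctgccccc

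The start regions differed in CG content. Over the full 250 bases before the start, Tet1 had 15 CG, Tet3 17, Dnmt3b 21 and this Dnmt3l start 4, against a median of 6 over 32851 start regions of the table. The other Tet gene, Tet2, had 51 CG, more than 99.9% of start regions. The assembled Dnmt3l locus began 32 bases from the Dnmt3l start shown, whereas the RefSeq start furthest upstream lies 7523 bases before the locus. The starts shown for Tet1, Tet3 and Dnmt3b lie 5547, 15157 and 7434 bases inside their loci. Of the motifs searched on both strands, GGGCGG was found in the 250 bases of all of these 5 genes and in 32.7% of all start regions, CACGTG only in that of Dnmt3l (6.02% of all) and CCAAT only in that of Tet3 (33.8% of all). ATTTGCAT (1.60% of all) and TATAAA (12.4% of all) were in none of the 5. GGGCGG itself holds a CG, and a match of letters is a description, not a site of binding.

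The first comparison asks which of these genes differ between SSC and the iPSC made from them. In SSCiPSC, 7 of the 10 genes rose (Tet1, Tet2, Dnmt1, Dnmt3b, Dnmt3l, Uhrf1 and Apobec1) and 1 fell (Tet3), while Dnmt3a and Tdg did not pass. Of all 36544 loci tested, 26.2% were called higher and 24.1% lower in SSCiPSC, and of the 10048 uniquely named genes 34.1% and 28.7%. The genes' median log2 difference was 1.23, against 0.11 for all loci. Calls are limma's moderated test on log2(FPKM + 1) with Benjamini-Hochberg adjusted p below 0.05. Log2 differences are on that scale too, where the added 1 shrinks the change of genes with low values.

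**Figure D1:**
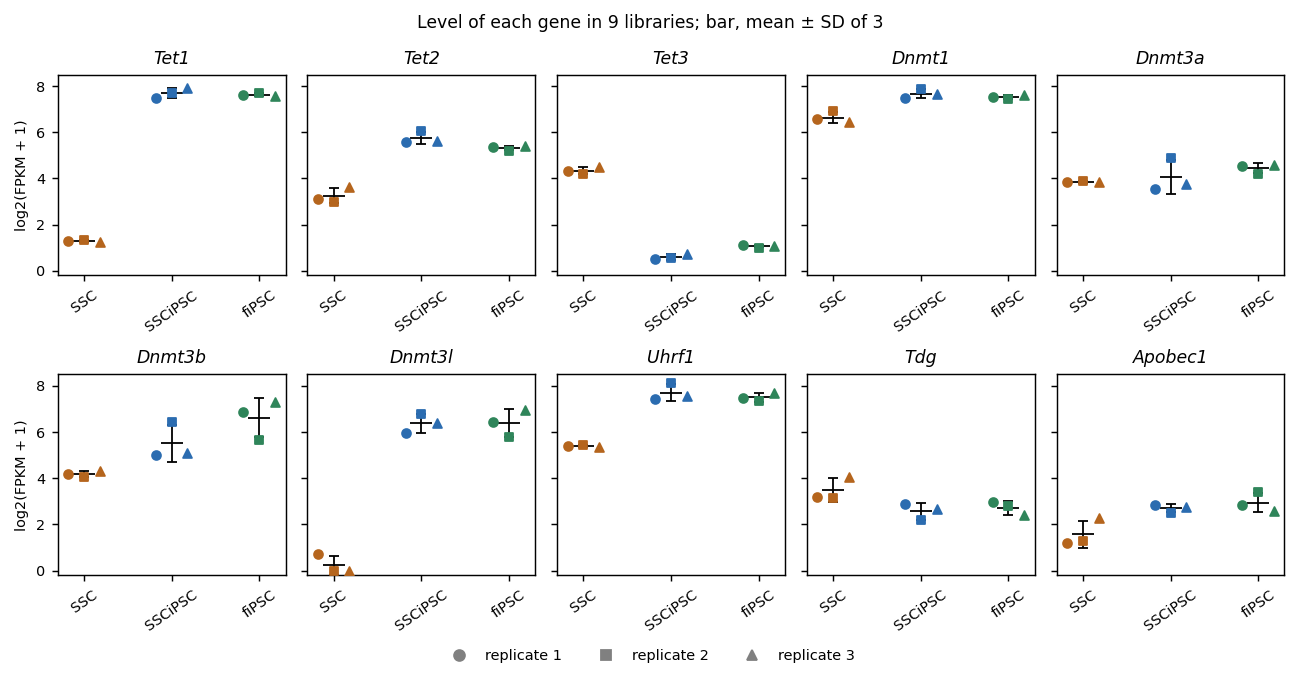
Level of each of the 10 genes in the 9 libraries. Each panel shows log2(FPKM + 1) on the vertical axis, 1 symbol per library (circle, square and triangle for replicates 1, 2 and 3) and the mean ± SD of 3 as bars. Tet1, Dnmt3l and Uhrf1 lie higher in all 6 iPSC libraries than in SSC, Tet3 lies lower in all 6, and the squares of Dnmt3b lie high in SSCiPSC and low in fiPSC.

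The Tet paralogues exchanged places between SSC and iPSC. Tet1 (ENSMUSG00000047146.17), the Tet enzyme typical of embryonic stem cells, was measured on chromosome 10 from 62812482 to 62892871, which covers 77.0% of the gene. Its level was 1.48, 1.55 and 1.36 FPKM in SSC replicates 1, 2 and 3, 180, 205 and 243 FPKM in SSCiPSC and 194, 208 and 191 FPKM in fiPSC. All 6 iPSC libraries lay far above every SSC library, and the mean FPKM of SSCiPSC was 143 times that of SSC. The log2 difference was 6.40 with a standard error of 0.16 (limma, adjusted p = 7.57e-06). The 3 other loci at the 3′ end of the gene, which carry no strand, were also at or below 2.40 FPKM in SSC and between 61.4 and 256 FPKM in iPSC.

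Tet3 (ENSMUSG00000034832.15), the paralogue known for its role in the zygote, was measured over nearly its whole length on chromosome 6 from 83362141 to 83456835. Its level was 18.7, 17.5 and 21.6 FPKM in SSC, 0.412, 0.484 and 0.659 FPKM in SSCiPSC and 1.14, 1.01 and 1.11 FPKM in fiPSC. The groups did not overlap. It fell by 3.74 on the log2 scale in SSCiPSC (standard error 0.22, limma, adjusted p = 9.76e-05), and the mean FPKM in SSC was 19.3 ± 2.09 against 0.518 ± 0.127 in SSCiPSC (SD, n = 3 each).

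Tet2 (ENSMUSG00000040943.12), whose product lacks a CXXC domain, lies on chromosome 3 from 133465208 to 133544489. Its level was 7.71, 6.98 and 11.2 FPKM in SSC, 47.4, 65.7 and 48.6 FPKM in SSCiPSC and 40.3, 36.0 and 40.9 FPKM in fiPSC. All iPSC libraries lay above all SSC libraries. The highest SSC value was that of replicate 3, the library with the most mast cell and macrophage transcripts. The same held for Tet3, Dnmt3b, Tdg and Apobec1, whereas the other genes studied were highest in SSC replicate 1 or 2. The part of those transcripts in these levels was not tested. In SSCiPSC, Tet2 was higher than in SSC by 2.52 on the log2 scale, with a standard error of 0.23 (limma, adjusted p = 0.000307).

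As a share of the summed FPKM of the 3 paralogues, Tet3 held 67.1%, 67.3% and 63.2% in SSC and Tet1 5.31%, 5.93% and 3.98%. In SSCiPSC, Tet1 held 79.0%, 75.6% and 83.1% and Tet3 0.181%, 0.179% and 0.226%. In fiPSC, Tet1 held 82.4%, 84.9% and 82.0% and Tet3 0.484%, 0.412% and 0.474%. Tet2 kept an intermediate place, with 29.1% ± 3.27 in SSC, 20.6% ± 3.80 for SSCiPSC and 16.5% ± 1.52 for fiPSC (SD, n = 3 per group). The summed Tet level was 29.4 ± 4.25 FPKM in SSC, 263 ± 32.6 FPKM in SSCiPSC and 238 ± 6.10 FPKM in fiPSC. The Tet1 and Tet3 shares of SSC and of either iPSC group did not overlap (exact permutation test, two-sided, p = 0.1, adjusted over the 9 share tests 0.129). With 3 libraries against 3 this test cannot give a p below 0.1.

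**Figure D2:**
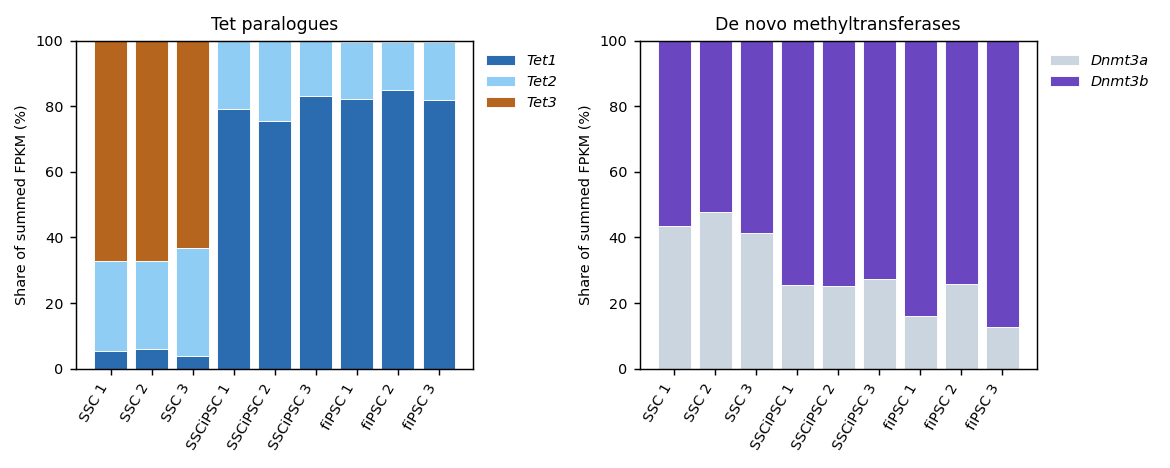
Paralogue shares in each library. The vertical axes give the percent of the summed FPKM of Tet1, Tet2 and Tet3 (left) and of Dnmt3a and Dnmt3b (right), with 1 bar per library. Tet3 fills 63.2% to 67.3% of the Tet sum in SSC and less than 0.5% in every iPSC library, and the Dnmt3b share runs from 52.4% in SSC replicate 2 to 87.3% in fiPSC replicate 3, with the loci chosen by the rule.

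Dnmt1 and Uhrf1, the maintenance genes of the 10, were expressed in all libraries and were called higher in both iPSC groups, Dnmt1 not under every scaling. The locus of Dnmt1 (ENSMUSG00000004099.16) spans 20907364 to 20952987 of chromosome 9. Dnmt1 was at 93.5, 119 and 86.3 FPKM in SSC, 180, 232 and 198 FPKM in SSCiPSC and 184, 170 and 195 FPKM in fiPSC. It was the most abundant of the 10 genes in SSC. Limma put SSCiPSC above SSC by 1.03 on the log2 scale with a standard error of 0.17 (adjusted p = 0.00295), but after quantile normalization, which forces all libraries to 1 distribution, it was 0.05 (adjusted p = 0.795). The call of Dnmt1 therefore rests on the scaling, and so do those of Usp7, Parp1 and Zbtb38 below, at 0.26, 0.05 and 0.42 after quantile normalization (adjusted p = 0.164, 0.857 and 0.122).

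Uhrf1 (ENSMUSG00000001228.14) was measured on chromosome 17 between 56302971 and 56323480. Its level was 40.7, 42.4 and 39.5 FPKM in SSC, 170, 276 and 190 FPKM in SSCiPSC and 176, 160 and 207 FPKM in fiPSC. The SSC libraries lay within 1.07 times of each other, well below all iPSC libraries. Uhrf1 was higher in SSCiPSC than in SSC by 2.31 on the log2 scale, with a standard error of 0.20 (limma, adjusted p = 0.000262). Under 18 alternative settings the difference ranged from 1.54 to 2.55. The ratio of Uhrf1 to Dnmt1 FPKM was 0.417 ± 0.0529 in SSC, against 1.03 ± 0.136 for SSCiPSC and 0.987 ± 0.0672 for fiPSC (SD, n = 3 each).

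Transcripts of dividing cells were also higher in SSCiPSC, most of them also after quantile normalization, where Dnmt1 was not called. All 8 S phase and proliferation genes with a locus rose in SSCiPSC (median log2 difference 2.27), and 7 of them after quantile normalization. The replicative helicase subunit Mcm2 had 52.7, 60.3 and 45.3 FPKM in SSC and 196, 277 and 220 FPKM in SSCiPSC, and the ribonucleotide reductase subunit Rrm2 had 2.17, 4.23 and 4.18 FPKM in SSC and 127, 126 and 146 FPKM in SSCiPSC. Their part in the Dnmt1 and Uhrf1 levels was not tested.

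Among the maintenance list, 4 of 6 genes rose in SSCiPSC and none fell, against 3 and 1 after quantile normalization. These were Dnmt1, Uhrf1, the deubiquitinase Usp7 (82.2 ± 5.51 FPKM in SSC and 191 ± 29.6 FPKM in SSCiPSC, SD, n = 3 each) and the replicative ligase Lig1 (31.2 ± 3.98 and 121 ± 17.2 FPKM). Uhrf2, the paralogue of Uhrf1, was at 28.6, 24.6 and 26.8 FPKM in SSC and 23.5, 18.2 and 23.7 FPKM in SSCiPSC and did not pass (log2 difference -0.29, limma, adjusted p = 0.185).

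Of the de novo enzymes, the accessory Dnmt3l was the gene with the lowest level in SSC. Dnmt3l (ENSMUSG00000000730.13; chromosome 10, 78049810 to 78063999) was at 0.622 FPKM in SSC replicate 1 and at 0 in replicates 2 and 3. It had 62.0, 110 and 81.8 FPKM in SSCiPSC and 86.1, 54.1 and 125 FPKM in fiPSC, so every iPSC library lay far above SSC. The 0 values allow up to 0.389 FPKM in replicate 2 and 1.30 FPKM in replicate 3, the worth of 3 fragments over the longest annotated transcript. The SSC value amounts to 2 fragments in the 3 libraries together, which puts the mean of SSCiPSC at 547 times the SSC level, with a 95% Poisson interval from 151 to 4517 times for counting error only. Limma gave a log2 difference of 6.15 with a standard error of 0.30 (adjusted p = 6.35e-05), a value that depends on the pseudocount.

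Dnmt3a (ENSMUSG00000020661.15; chromosome 12, 3806527 to 3914360) gave no call between SSC and SSCiPSC. Its libraries stood at 13.4, 14.0 and 13.2 FPKM in SSC, 10.6, 28.7 and 12.5 FPKM in SSCiPSC and 22.0, 17.4 and 23.1 FPKM in fiPSC. In SSCiPSC, replicate 2 lay above and replicates 1 and 3 below all SSC libraries. Between SSCiPSC and SSC the log2 difference was 0.20 (95% interval -0.67 to 1.06, limma, adjusted p = 0.682), and without SSCiPSC replicate 2 it was -0.22 (adjusted p = 0.358).

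Dnmt3b (ENSMUSG00000027478.15) had no locus that covered 50% of the gene and lay 50% within it. It was measured on chromosome 2 from 153642015 to 153666095, which covers 43.5% of the gene at its 5′ end. The level was 17.4, 15.4 and 18.7 FPKM in SSC, 30.9, 84.9 and 33.2 FPKM in SSCiPSC and 116, 49.8 and 158 FPKM in fiPSC. All iPSC libraries lay above SSC, and replicate 2 was the highest of SSCiPSC and the lowest of fiPSC. SSCiPSC lay above SSC by 1.32 on the log2 scale, with a standard error of 0.39 (limma, adjusted p = 0.0279), and leaving out any SSC library moved the adjusted p to between 0.0504 and 0.0731. Without SSCiPSC replicate 2 the difference was 0.86 (adjusted p = 0.012), and without the other libraries in turn 1.25 to 1.58.

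A second locus, from 153667400 to 153727320, starts inside Dnmt3b, covers 53.1% of it and runs on over Dnmt3c, a rodent paralogue expressed in male germ cells, so that the levels of Dnmt3b and Dnmt3c cannot be told apart there. Its level was 8.37, 13.2 and 8.67 FPKM in SSC, 19.4, 56.7 and 22.6 FPKM in SSCiPSC and 70.1, 34.3 and 97.4 FPKM in fiPSC. The order of the iPSC libraries was that of the 5′ locus.

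As a share of Dnmt3a plus Dnmt3b, Dnmt3b held 56.6%, 52.4% and 58.6% in SSC, 74.5%, 74.7% and 72.6% in SSCiPSC and 84.1%, 74.1% and 87.3% in fiPSC. With all loci named for a gene summed, the mean share in SSC was 33.4% in place of 55.8%, so that Dnmt3a was then the larger. SSC lay below both iPSC groups (exact permutation test, two-sided, p = 0.1, adjusted 0.129), and both iPSC groups overlapped (p = 0.3 in the same test). In SSCiPSC the share varied little although the sum of both genes was 41.5, 114 and 45.7 FPKM in replicates 1, 2 and 3. In fiPSC the sum was 138, 67.3 and 181 FPKM, and the share was lowest in replicate 2 as well. Dnmt1 exceeded the sum of Dnmt3a and Dnmt3b in every library, with a ratio of 3.26 ± 0.689 in SSC, 3.57 ± 1.32 for SSCiPSC and 1.65 ± 0.780 for fiPSC (SD, n = 3 per group).

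Tdg (ENSMUSG00000034674.18), the glycosylase that cuts out the oxidised bases made by Tet enzymes, was split over 7 loci and its value is uncertain. The locus chosen by the rule, on chromosome 10 from 82629738 to 82639390, carries no strand and shares its interval with 2 others. It had 8.22, 7.86 and 15.8 FPKM in SSC, 6.36, 3.51 and 5.33 FPKM in SSCiPSC and 6.94, 5.99 and 4.25 FPKM in fiPSC, with SSC replicate 3 the highest and all SSC libraries above all iPSC libraries. Limma's log2 difference of SSCiPSC from SSC was -0.90 (95% interval -1.71 to -0.10, adjusted p = 0.063). Tdg was called lower in SSCiPSC under 2 of 17 alternatives, with all 9 libraries in the fit (limma, adjusted p = 0.034) and with 1 locus per named gene (0.0229), and lower in fiPSC under the latter alone (0.0423). On the plus strand, that of the gene, the locus of the same interval had 6.13, 4.87 and 3.39 FPKM in SSC and 4.50, 5.54 and 4.37 FPKM in SSCiPSC, with a log2 difference of 0.03 (limma, adjusted p = 0.948). The piece at the 3′ end, which spans 82649623 to 82650273, was at 8.04, 5.27 and 10.3 FPKM in SSC and at 8.45, 16.2 and 12.8 FPKM in SSCiPSC.

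Apobec1 (ENSMUSG00000040613.14; chromosome 6, 122578700 to 122600100) was low throughout. It stood at 1.26, 1.44 and 3.78 FPKM in SSC, 6.26, 4.70 and 5.66 FPKM in SSCiPSC and 6.11, 9.56 and 5.02 FPKM in fiPSC. All iPSC libraries lay above SSC, of which replicate 3 was the highest. In SSCiPSC it was higher by 1.13 on the log2 scale with a standard error of 0.35 (limma, adjusted p = 0.0366). This call was lost with every library left out except SSC replicate 3 (adjusted p from 0.0834 to 0.123) and with the replicate block (adjusted p = 0.059).

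The second comparison asks whether fiPSC differ from SSCiPSC in these genes. None of the 10 genes passed limma's test, here or under any alternative setting, and 2 of 10 (Tet2 and Tet3) had an unadjusted p below 0.05, as had 3988 of the 33948 loci tested. Only 0.0678% of the loci were called in either direction. The groups of Tet2 and Tet3 did not overlap, which was also the case for 18.6% of the loci. Tet2 was lower in fiPSC by 0.44 on the log2 scale (95% interval -0.79 to -0.09, limma, adjusted p = 0.341) and Tet3 higher by 0.46 (0.07 to 0.85, limma, adjusted p = 0.358). The Tet3 share of the Tet sum was higher in all 3 fiPSC libraries than in all 3 SSCiPSC libraries (exact permutation test, two-sided, p = 0.1), at less than 0.5% in both groups.

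The intervals of the other genes show what the test could not separate. For Tet1 the log2 difference of fiPSC from SSCiPSC was -0.07 (95% interval -0.38 to 0.24), for Dnmt1 -0.15 (-0.44 to 0.15) and for Uhrf1 -0.20 (-0.66 to 0.26). For Dnmt3b it was 1.11 with an interval from -0.09 to 2.31 (limma, adjusted p = 0.453), and for Dnmt3l 0.02 with an interval from -0.74 to 0.78. For Dnmt3a it was 0.38 with an interval from -0.43 to 1.19, for Apobec1 0.24 with an interval from -0.32 to 0.80, and for Tdg 0.16 with an interval from -0.43 to 0.74.

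The third comparison, fiPSC against SSC, shares its SSC libraries with the first and is no independent repeat of it. Here 8 of 10 genes rose and 1 fell, where 28.0% of 38007 loci were called higher and 23.7% lower, and of 10161 uniquely named genes 35.3% and 30.0%. Tet1 was higher by 6.33 (standard error 0.11, limma, adjusted p = 2.79e-06), Tet2 by 2.08, Uhrf1 by 2.11, Dnmt3b by 2.44 and Dnmt3l by 6.17 on the log2 scale. For Uhrf1 the difference of fiPSC from SSC ranged from 1.45 to 2.35 under 18 alternative settings. Tet3 fell by 3.28 (standard error 0.17, limma, adjusted p = 7.67e-05). Dnmt3a, which did not pass in SSCiPSC, was higher than SSC in all 3 fiPSC libraries, with a log2 difference of 0.58 (limma, adjusted p = 0.0159). That call was lost without fiPSC replicate 1 or 3, with the replicate block (adjusted p = 0.0536) and with all 9 libraries in the fit (adjusted p = 0.155), and its difference from the SSCiPSC value did not pass (limma, adjusted p = 0.709). Dnmt1 was higher by 0.88 (limma, adjusted p = 0.00283) and by 0.01 after quantile normalization. Apobec1 was higher by 1.37 (limma, adjusted p = 0.0252), a call kept only without SSC replicate 3 among the libraries left out in turn, and lost with the replicate block (adjusted p = 0.0605). Tdg was at -0.75 (limma, adjusted p = 0.0912).

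Among the genes with a group mean of at least 5 FPKM, the spread between libraries was largest for Dnmt3b and Dnmt3a in SSCiPSC, for Dnmt3b and Dnmt3l in fiPSC and for Tdg in SSC. The highest SSCiPSC library exceeded the lowest by 2.71 times for Dnmt3a and 2.75 times for Dnmt3b, at the 98.6th and 98.7th percentile of the 6913 named genes with a group mean of at least 5 FPKM, whose median was 1.31 times. In fiPSC the ratio was 3.17 times for Dnmt3b and 2.31 times for Dnmt3l, at the 99.8th and 99.4th percentile of 6995 genes with a median of 1.18 times. In SSC the same ratio was 2.01 times for Tdg, 1.06 times for Dnmt3a, 1.21 times for Dnmt3b and 1.07 times for Uhrf1. Tdg spread by 1.81 times in SSCiPSC and 1.64 times in fiPSC, Apobec1 by 1.33 and 1.90 times, and Tet1 by 1.35 and 1.09 times.

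SSCiPSC replicate 2 was the highest of its group, and fiPSC replicate 2 the lowest of its own, for Tet2, Dnmt1, Dnmt3a, Dnmt3b, Dnmt3l and Uhrf1. This pattern was noticed after the values were seen. These are 6 of the 9 genes with a mean of at least 5 FPKM in iPSC, beside 34.4% of 6975 named genes. Nothing in the labels links libraries of different groups that share a number. On the log2 scale, SSCiPSC replicate 2 exceeded the mean of the other SSCiPSC libraries by 1.38 for Dnmt3b, 1.25 for Dnmt3a, 0.61 for Dnmt3l and 0.62 for Uhrf1. In fiPSC, replicate 2 differed from the others by -1.43 for Dnmt3b, -0.93 for Dnmt3l and -0.35 for Dnmt3a. SSCiPSC replicate 2 is also the library almost without Y-linked transcripts, whereas in fiPSC replicate 2 Ddx3y and Eif2s3y were at 26.5 and 37.3 FPKM.

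Across 6975 named genes, the deviation of replicate 2 varied with transcript GC content, with r = 0.30 in SSCiPSC and r = -0.14 in fiPSC. Across named genes, the median log2 deviation of SSCiPSC replicate 2 rose from -0.07 in the quintile of genes with the lowest transcript GC to 0.26 in the quintile with the highest, and that of fiPSC replicate 2 went from -0.01 to -0.11. Dnmt3a, Dnmt3b, Dnmt3l and Uhrf1, with a transcript GC of 51.9%, 53.1%, 53.3% and 53.7%, all belong to GC quintile 4, where the medians were 0.17 and -0.07. Within that quintile of 1395 genes, Dnmt3b stood at the 99.7th percentile of the SSCiPSC deviation and the 0.0717th of the fiPSC deviation, Dnmt3a at the 99.6th and 8.46th, Uhrf1 at the 93.1st and 16.9th, and Dnmt3l at the 92.9th and 0.43rd. Dnmt1, in the same quintile, stood only at the 66.4th and 33.0th, and Tet2, in quintile 2, at the 94.3rd and 22.1st of its own. The fibroblast or feeder genes were also lowest in replicate 2 of both groups, at 23.4 FPKM against 33.9 and 49.6 FPKM in SSCiPSC and 13.2 FPKM against 38.6 and 49.0 FPKM in fiPSC, summed over 11 genes and led by Col3a1. The part of GC content, of the fibroblast or feeder transcripts and of the missing Y-linked transcripts in the spread was not tested.

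**Figure D3:**
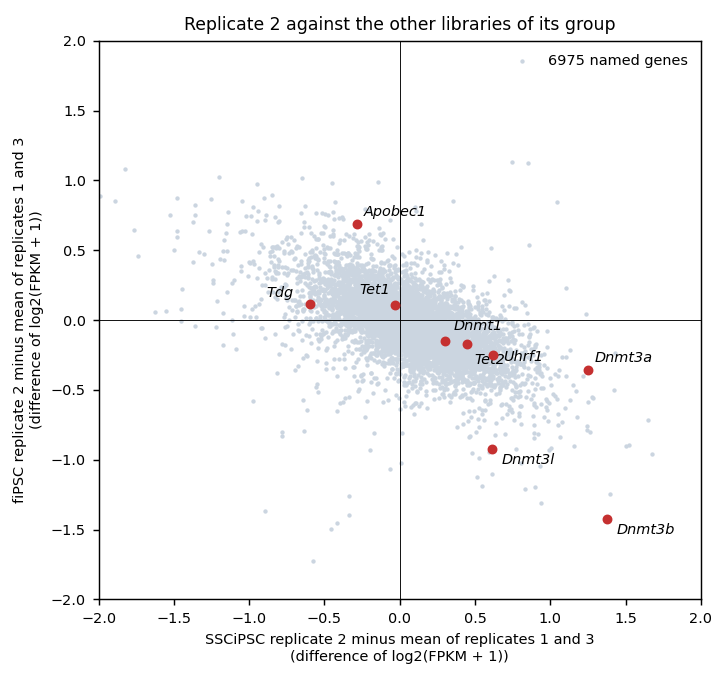
Deviation of replicate 2 from the mean of the other libraries of its group. The horizontal axis gives SSCiPSC and the vertical axis fiPSC, both as differences of log2(FPKM + 1), with 1 grey point per named gene (8 of 6975 lie outside the axes) and the genes studied in red, apart from Tet3, whose mean in iPSC was under 5 FPKM. Dnmt3b lies at the lower right edge, 1.38 above its group in SSCiPSC and 1.43 below it in fiPSC, while Tet1 lies near the origin.

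Genes with a pattern like that of Tet1 and Dnmt3b were sought by Pearson's r of log2(FPKM + 1), as a description over libraries that share their groups. Over 9 libraries and 7500 named genes, the 5 genes most like Tet1 were Zic5, Slc38a4, L1td1, Gdf3 and BC067074, all with r of at least 0.999 after rounding. All were below 3 FPKM in SSC and between 18.4 and 315 FPKM in iPSC. Among the genes studied, Dnmt3l had r = 0.990 and Tet3 r = -0.992 with Tet1. For Dnmt3b the highest r belonged to the second locus within it, which also runs over Dnmt3c (0.980 over 9 libraries and 0.997 over the 6 iPSC libraries). As that locus covers part of Dnmt3b, Dnmt3b may there be set against itself. The other genes most like Dnmt3b were Grhl2, Rfng, Gemin7 and Ppm1m (r = 0.950 to 0.958). Over the 6 iPSC libraries, Grhl2, an epithelial transcription factor, had r = 0.986 with Dnmt3b and Aoah r = 0.993. Grhl2 had 4.29, 8.995 and 3.69 FPKM in SSCiPSC and 12.6, 7.11 and 16.1 FPKM in fiPSC.

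The other genes of the pathway were taken from 8 lists of 76 genes beside the 10, of which 64 had a locus and 63 were tested between SSCiPSC and SSC. Of these, 32 rose and 9 fell in SSCiPSC (median log2 difference 0.89), and none passed between fiPSC and SSCiPSC (lowest adjusted p 0.121, limma, for Nanog). In fiPSC against SSC, 34 of 64 rose and 8 fell. After quantile normalization Usp7, Sall4, Dcaf1, Idh1, Parp1, Zbtb38, Mat2a, Mat2b, Shmt2 and Kdm1a were no longer called between SSCiPSC and SSC. Between fiPSC and SSC the calls of Usp7, Ogt, Cxxc5, Sall4, Idh1, Parp1, Mat2a, Mat2b and Kdm1a were lost. Of all uniquely named genes, 34.1% were called higher and 28.7% lower in SSCiPSC against SSC, and 35.3% and 30.0% in fiPSC against SSC, so that a list such as excision repair, with 4 of 14 higher, is near that share.

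The next lists hold genes that place or guard methylation. In the de novo list, which holds the enzymes and their recruiters, 7 of 10 genes rose in SSCiPSC and none fell, also after quantile normalization. The 7 include Dnmt3b and Dnmt3l, which were already counted among the genes studied. Zfp57, a zinc finger protein that protects imprinted regions, had 9.27, 9.31 and 7.36 FPKM in SSC, 175, 254 and 154 FPKM in SSCiPSC and 134, 121 and 163 FPKM in fiPSC. Its log2 difference of SSCiPSC from SSC was 4.31 with a standard error of 0.22 (limma, adjusted p = 6.55e-05). Its corepressor Trim28 had 127, 148 and 114 FPKM in SSC, 468, 1029 and 613 FPKM in SSCiPSC and 534, 391 and 658 FPKM in fiPSC, again with replicate 2 highest in SSCiPSC and lowest in fiPSC. Setdb1, the H3K9 methyltransferase that Trim28 recruits, was at 48.2, 54.3 and 42.7 FPKM in SSC and 51.1, 70.4 and 57.5 FPKM in SSCiPSC and did not pass. In the list of imprint guards and Ctcf, 7 of 10 rose and 1 fell. The counts were 6 and 1 after quantile normalization and 8 and 0 after median-ratio scaling. The lists overlap: Zfp57 and Trim28 count here and in the de novo list, and Dppa3 here and among the Tet partners. The insulator protein Ctcf went from 21.1, 33.0 and 30.6 FPKM to 68.2, 85.7 and 94.1 FPKM.

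Dppa3, which shields methylated DNA from Tet activity in the zygote, had 2.50, 1.24 and 0 FPKM in SSC, 6.06, 11.9 and 5.50 FPKM in SSCiPSC and 29.2, 14.7 and 33.5 FPKM in fiPSC. The iPSC groups did not overlap, but their difference did not pass (log2 1.59, standard error 0.37, limma, adjusted p = 0.225). Here too replicate 2 was highest in SSCiPSC and lowest in fiPSC.

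Among partners and cofactors of the Tet enzymes, 7 of 14 rose in SSCiPSC and 1 fell, against 4 and 2 after quantile normalization. Without that normalization, 34.1% of all uniquely named genes were called higher. The 7 include Nanog, Prdm14 and Dppa3, which are also on the list of naive pluripotency genes, where all 10 with a locus rose. Nanog, Prdm14, Dppa3 and Idh2 were the 4 still called after quantile normalization. Nanog, a pluripotency factor that binds Tet1, was at 0 in all SSC libraries and at 483, 456 and 426 FPKM in SSCiPSC. Idh2, which makes the Tet cosubstrate 2-oxoglutarate in mitochondria, had 9.88, 10.3 and 24.6 FPKM in SSC and 123, 114 and 103 FPKM in SSCiPSC. The glycosyltransferase Ogt and the Sin3a corepressor, both of which bind Tet1, were at 74.9 ± 5.11 and 136 ± 3.88 FPKM in SSC and 101 ± 18.8 and 149 ± 19.7 FPKM in SSCiPSC (SD, n = 3 each) and did not pass. Cxxc1, a CG-binding protein of the Setd1 complexes, fell from 51.5, 53.8 and 48.6 FPKM to 15.7, 25.5 and 18.2 FPKM (log2 difference -1.36, limma, adjusted p = 0.00168).

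The 2 other deaminases with a locus also rose, with larger log2 differences than that of Apobec1. Apobec3, a restriction factor against retroelements, stood at 1.87, 4.05 and 3.35 FPKM in SSC, 127, 129 and 114 FPKM in SSCiPSC and 99.4, 90.7 and 113 FPKM in fiPSC, with a log2 difference of 4.96 (standard error 0.23, limma, adjusted p = 5.50e-05). Apobec2 had 0, 0.456 and 0 FPKM in SSC and 13.8, 3.52 and 6.27 FPKM in SSCiPSC (log2 difference 2.79, limma, adjusted p = 0.00311). In the excision repair list, 4 of 14 rose and 2 fell, against 7 and 2 after median-ratio scaling. The uracil glycosylase Ung rose from 14.2 ± 4.66 to 51.3 ± 15.1 FPKM (SD, n = 3 each), Neil1, Parp1 and Xrcc1 rose as well, and Gadd45b fell from 46.8, 48.8 and 51.2 FPKM to 17.3, 9.10 and 11.7 FPKM. The glycosylases Neil2, Neil3, Smug1 and Mbd4 did not pass.

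The readers, which are proteins with a methyl-CG binding domain and zinc finger proteins that bind methylated CG, fell more often than they rose in SSCiPSC. Of 7 readers, 4 fell in SSCiPSC and 2 rose, against 4 and 1 after quantile normalization and 4 and 3 after median-ratio scaling (median log2 difference without either -0.92). Mbd2 fell from 46.9, 71.9 and 57.8 FPKM in SSC to 20.4, 18.3 and 18.8 FPKM in SSCiPSC, and was at 18.7, 21.4 and 18.7 FPKM in fiPSC (log2 difference of SSCiPSC from SSC -1.55, standard error 0.18, limma, adjusted p = 0.000767). Mbd1, Mbd5 and Zbtb4 also fell. Mbd3, the family member of the NuRD complex that does not favour methylated DNA, rose from 12.8, 16.4 and 14.0 FPKM to 23.4, 49.4 and 39.8 FPKM, and Zbtb38 rose by 0.55 on the log2 scale (limma, adjusted p = 0.0451).

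In the cycle that supplies the methyl donor S-adenosylmethionine, 6 of 10 genes rose and 1 fell, against 3 and 2 after quantile normalization. The threonine dehydrogenase Tdh, which feeds this cycle in mouse pluripotent cells, had 0.721, 0.964 and 0.460 FPKM in SSC, 141, 285 and 164 FPKM in SSCiPSC and 134, 93.1 and 155 FPKM in fiPSC (log2 difference of SSCiPSC from SSC 6.79, standard error 0.29, limma, adjusted p = 4.51e-05). Gldc, of the glycine cleavage system, had 5.77, 10.5 and 5.36 FPKM in SSC, 22.9, 49.6 and 29.7 FPKM in SSCiPSC and 86.8, 38.4 and 91.3 FPKM in fiPSC. The methionine synthase Mtr fell from 51.1, 51.2 and 31.5 FPKM in SSC to 17.9, 19.3 and 16.3 FPKM in SSCiPSC.

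**Figure D4:**
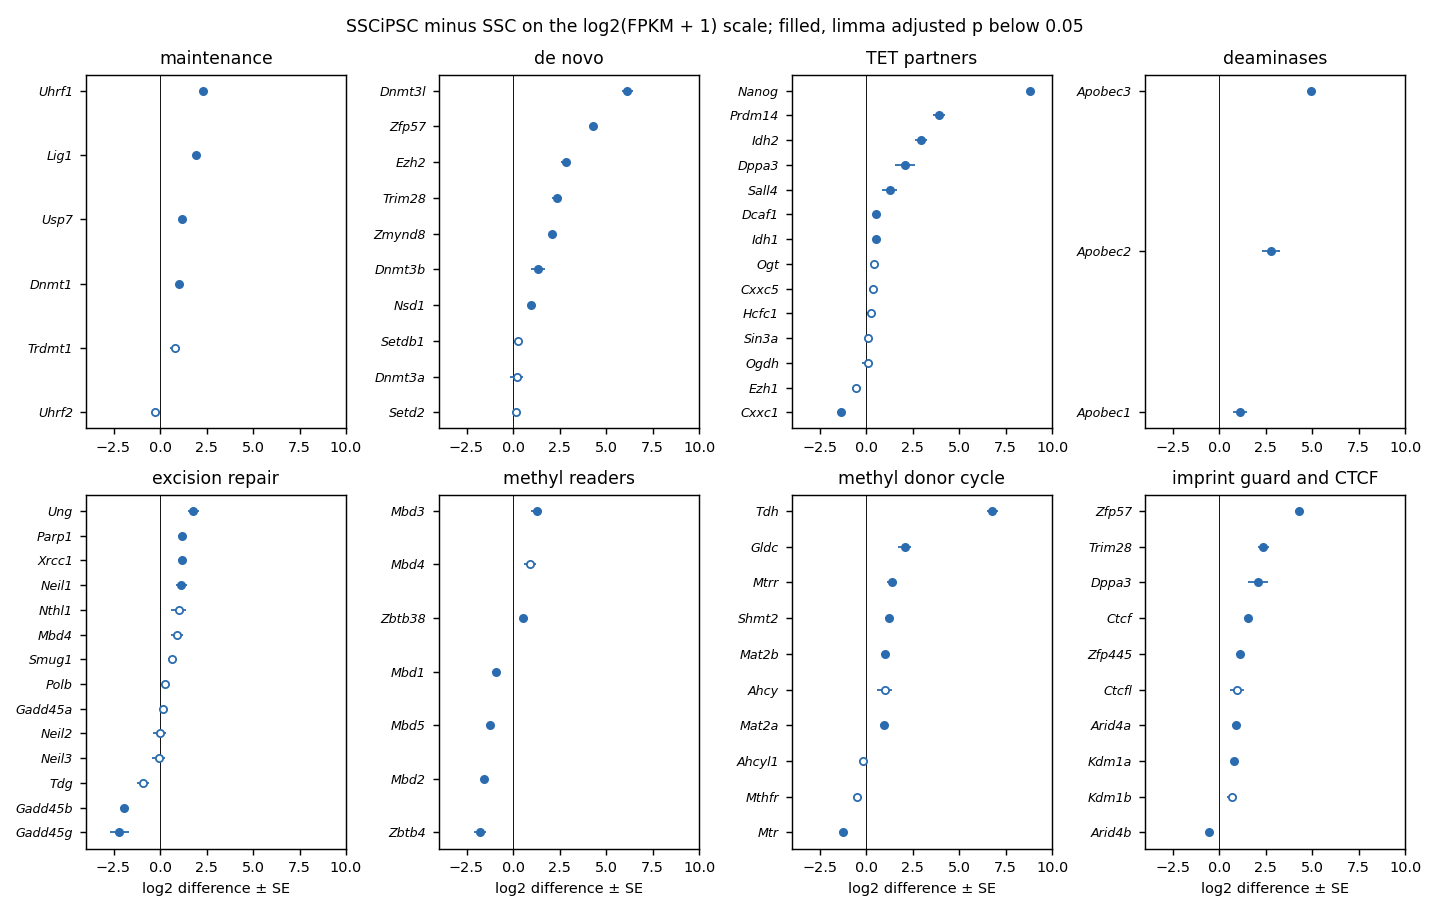
Log2 difference of SSCiPSC from SSC for the genes of the 8 pathway lists, on the log2(FPKM + 1) scale. Points give the difference and bars the standard error, and filled points have a limma adjusted p below 0.05. The de novo list lies to the right of 0 with Dnmt3l at 6.15, whereas 4 of 7 methyl readers lie to the left with filled points. Dnmt1 is at 1.03 here and at 0.05 after quantile normalization.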

How the data were processed

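The authors trimmed and aligned paired-end reads and assembled and quantified loci (Trimmomatic 0.32, TopHat2 2.0.9, Bowtie2 2.1.0, Cufflinks 2.2.1 and Cuffdiff, per the submitters' processing notes). The labels name both depletion of ribosomal RNA and a stranded mRNA kit. The deposited values, headed RPKM, were treated as FPKM (fragments scaled to transcript length and depth), 1 per locus and library. The labels name build mm9, but the coordinates match GRCm38 genes: of 16363 stranded loci, 92.8% overlapped protein-coding genes on their own strand, against 37.9% after a shift of 1000000 bases.

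A blank value removed 1 of 54914 loci. A locus was taken for a gene when each covered at least 50% of the other. Since Dnmt3b and Tdg then had none, a locus lying at least 50% inside a gene and covering at least 25% of it was accepted as well, and the one with the highest mean was kept. Depth was read from the step of the lowest values. For pairs of groups, lmFit and eBayes with trend (limma 3.58.1, R 4.3.3) were run on log2(FPKM + 1) of every locus that reached 1 FPKM in 3 or more of 6 libraries, with Benjamini-Hochberg adjustment over all loci and a threshold of 0.05. The test was also run on simulated data, and no result given here rests on that run. Shares were compared by exact permutation in scipy 1.17.1. Genes named beside the 10 come from fixed lists and, for likeness, are the 5 with the highest r among named loci with a mean of at least 5 FPKM. Start regions are from RefSeq, and all 10 genes matched. Members and lists were chosen with earlier results of these data known. Protein sequences, a table of feature totals and the methylation assays were not used here. A gene of the reader list is not reported here.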

Additional observations from a re-analysis of the deposited data

How the results depend on the processing

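Tet1, Tet2, Tet3, Dnmt3l and Uhrf1 kept their direction and passed under all 18 alternatives in both comparisons with SSC (another pseudocount, filter, scaling, variance model or locus, all 9 libraries, a replicate block, and each library left out). The number of the 10 genes called stayed between 6 and 9 for SSCiPSC against SSC and between 7 and 10 for fiPSC against SSC, and was 0 for fiPSC against SSCiPSC under every alternative. Of all loci, 23 were called between fiPSC and SSCiPSC, against 52 with 1 locus per named gene, 17 without a filter, 11 with a mean of at least 5 FPKM or all 9 libraries, 6 with the replicate block, and 6 to 20 with 1 library left out (6 without fiPSC replicate 1, 8 without fiPSC replicate 3 and 9 without SSCiPSC replicate 2). Quantile normalization removed the call of Dnmt1, and of 14 other listed genes between SSCiPSC and SSC. Median-ratio scaling moved the median log2 difference of all loci from 0.11 to 0.31. Summing all loci named for a gene, mostly strandless ones inside it, moved the Tet1 share in fiPSC to 78.7%, the Tet3 share to 59.5% in SSC, 0.163% in SSCiPSC and 0.370% in fiPSC, and the Dnmt3b share to 33.4% in SSC and 72.1% in SSCiPSC. Loci with a strand gave log2 differences for Tdg of 0.0251 for SSCiPSC and 0.10 for fiPSC against SSC, an alternative added after seeing the data, as was leaving out Dnmt3b and Tdg (7, 0 and 8 genes called).

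Among the 10 genes, signs turned only for differences that had not passed. For Dnmt3a, SSCiPSC against SSC, the value ranged from -0.22 to 0.46 with a library left out. Between fiPSC and SSCiPSC, Tet1 was at 0.0368 after quantile normalization and ranged from -0.17 to 0.0408 with a library left out, Dnmt3l was at -0.0204 after median-ratio scaling and ranged from -0.26 to 0.33, Uhrf1 ranged from -0.34 to 0.00606 and Tdg from -0.0421 to 0.33. The deviations of same-numbered libraries from their group means had r from -0.236 to 0.0214, the lowest for replicate 2 of fiPSC and SSCiPSC. The labels state no pairing, and with 3 libraries per group these values cannot exclude one. With the replicate block 7 genes were called for SSCiPSC against SSC, 0 for fiPSC against SSCiPSC and 7 for fiPSC against SSC. The SSC libraries are 2.84 to 12.6 times shallower than the iPSC libraries, which limits what can be said of Dnmt3l there.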
